A study of Homo sapiens with 2 samples.

Results

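The transcripts described here are the very long ones, over 10000 nt, that were recovered with the RNA helicase DDX3X in resting HEK293FT cells. A transcript was included when its length exceeded 10000 nt and its reads summed over both libraries came to at least 10. The members were thus chosen by measured values, the counts of both libraries and the length implied by counts and TPM. The rule took 523 of the 68731 transcripts in the deposited tables, or 1.13% of the 46395 that had 10 summed reads or more. HEK293FT is an established line of human embryonic kidney cells, labelled wild type (Wt). The group held 2 replicate libraries of cells at rest, given as exposed to DMSO in one label field and as untreated in another. Both were made by CLIP-seq with a custom rabbit polyclonal antibody to DDX3X, and all cells had been crosslinked with ultraviolet light in ice-cold HBSS. Cells treated with thapsigargin, input RNA and control precipitations were not analysed here, so no contrast between conditions was made. The column names of the tables give the protein and a replicate number but no treatment, so the columns were taken as the resting libraries by replicate number alone, and the names leave the condition open.

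DDX3X is a DEAD-box helicase, an enzyme that uses ATP to unwind RNA structure. It is known for helping ribosomes to start on messenger RNAs with structured leader sequences, and for entering stress granules when translation is blocked. In CLIP-seq, ultraviolet light links a protein to the RNA it touches, the protein is precipitated and the attached RNA is sequenced. Very long transcripts are in general either messenger RNAs that encode giant proteins or carry long untranslated regions, or long noncoding RNAs. A read number in these libraries reflects both how abundant an RNA was and how well it was recovered with DDX3X, and these cannot be told apart without input RNA.

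Each transcript carries an ID written like those of UCSC Known Genes, with no gene symbol beside it in the tables, and 0 of the 523 IDs appeared among the synonyms of the reference gene table (assembly GRCh38.p14), so the transcripts are described by ID, length and reads, and no sequence is shown. The count table summed to 19307022 counts in replicate 1 and 11238842 in replicate 2, a ratio of 1.72. The labels do not say whether the libraries came from separate cultures, so the spread between them may be partly technical. Levels are given as counts, as counts per 1000000 of the library total (CPM), or as the deposited TPM, which divides each count by transcript length and scales the library to 1000000. Within a library TPM is therefore proportional to reads per kb, the read density.

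Of 618 transcripts over 10000 nt with at least 1 read, 523 (84.6%) reached 10 reads and 95 had 1 to 9. The 11010 transcripts of any length with no count in either library have no implied length and could not enter the rule. The 523 lengths ran from 10002 to 101492 nt with a median of 11503 nt, and their lower and upper quartiles were 10695 and 13260 nt. Most lay near the lower bound: 191 measured at most 11000 nt, 122 more at most 12000 nt and 145 more at most 15000 nt. A further 50 reached at most 20000 nt, and 15 exceeded that.

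The values at the bounds of the rule are given as a description. The shortest transcript included was uc002yfm.2 (10002 nt), to which replicate 1 gave 58 counts and replicate 2 gave 50. The longest one left out by length, uc010ygu.1 (9998 nt), had 191 and 115. At the read minimum, 3 transcripts had exactly 10 summed reads, among them uc001hku.1 (18883 nt), with 9 counts from replicate 1 and 1 from replicate 2. Just under it, 6 transcripts over 10000 nt had 9 summed reads, among them uc002umz.1 (21753 nt) with 7 and 2.

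The very long transcripts were well covered in reads but thinly covered per kb. Their median count was 457 in replicate 1 and 286 in replicate 2, which is 24.6 ± 1.26 CPM (SD, n = 2), against 8.95 ± 0.081 CPM (SD, n = 2) for all transcripts with at least 10 summed reads. In TPM the order was the opposite, with a median of 3.96 in replicate 1 and 4.19 in replicate 2 (4.07 ± 0.160, SD, n = 2), against 6.52 ± 0.181 (SD, n = 2) for all. In reads per kb the medians were 40.6 and 24.1 in the respective libraries, against 65.5 and 38.3 for all. These medians describe values that the rule itself used and carry no test. Of the 523, 391 (74.8%) lay above the median CPM of all transcripts with at least 10 summed reads and 152 (29.1%) above their median TPM. A low level was also more frequent: 118 of the 523 (22.6%) had a mean TPM under 1, against 12.4% of all. The minimum of 10 summed reads admits lower TPM in longer transcripts, so this difference is partly fixed by the filter.

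The same 523 transcripts took 395263 counts in replicate 1, or 2.05% of the library (Wilson 95% interval 2.04 to 2.05%), and 246068 counts in replicate 2, or 2.19% (2.18 to 2.20%). The intervals did not overlap between the libraries, but they cover counting error at most and take each count as independent. Many entries had equal or nearly equal counts, as given below, so the intervals may be too narrow. The mean share was 2.12% ± 0.101 (SD, n = 2). In length they made up 4.81% of the summed nt of all transcripts with at least 10 reads. Of the deposited TPM they made up 0.310% in replicate 1 and 0.343% in replicate 2. By CPM, 3 of them were among the 100 highest transcripts of the table and 24 among the 1000 highest. By TPM, 0 were among the 1000 highest and 6 among the 5000 highest.

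Median read density was lower in each longer length class. With at least 10 summed reads, the median of the mean TPM was 29.1 in the 653 transcripts of at most 500 nt, 16.9 in the 2829 that reached at most 1000 nt, and 9.35 in the 12652 that reached at most 2000 nt. In the 23879 transcripts from there to 5000 nt it was 5.69, in the 5859 from there to 10000 nt it was 4.26, and in the 523 very long transcripts it was 4.14. The step from the class below 10000 nt to the very long transcripts was thus the smallest in the series of medians, while the lower end dropped further, with a lower quartile of 1.31 TPM against 1.52. A fixed minimum of reads admits lower densities in longer transcripts. With a minimum of 1 read the medians of the last 3 classes were 3.67, 3.15 and 2.74 TPM. With at least 1000 reads they were 32.0, 16.1 and 9.46 TPM. The order of these classes was the same at each minimum, while the sizes of the steps were not. Every minimum sets a floor of density that falls with length, so this order is partly fixed by the filter.

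**Figure D1:**
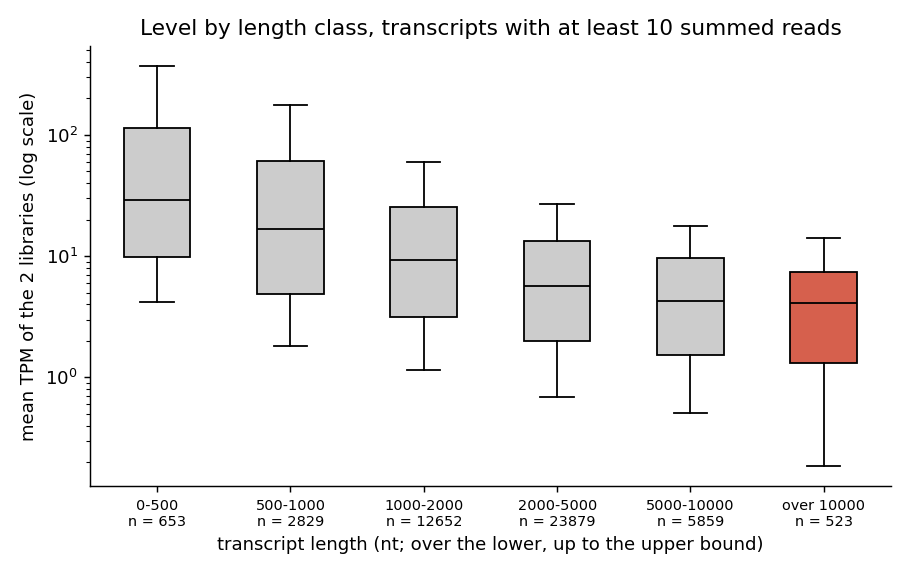
Mean TPM of the 2 libraries (log scale) by transcript length class, for transcripts with at least 10 summed reads. Boxes span the quartiles, the line is the median and whiskers reach the 10th and 90th percentiles. The median falls from 29.1 TPM in the shortest class to 4.14 TPM in the 523 transcripts over 10000 nt (coloured box).

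Within the 523, density varied far more than length, but the rule bounds length from below and so narrowed the lengths in advance. Over all transcripts with at least 10 summed reads, lengths ran from 22 to 101492 nt. Their densities ran from 0.351 to 105091 reads per kb, so the wider range of density was not particular to the very long transcripts. In the 523, reads per kb summed over both libraries ran from 0.351 to 1775, a ratio of 5053, while the longest transcript was 10.1 times the shortest. The 10th and 90th percentiles were 2.79 and 224 reads per kb. Reads were concentrated in part of the group: 71 transcripts held 50% of the reads, and the 50 with most reads held 42.3% in replicate 1 and 41.8% in replicate 2.

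The most-read very long transcript was uc004ebm.1 (19271 nt), which took 21146 counts in replicate 1 and 13051 in replicate 2. This was 1095 and 1161 CPM, and 107 and 117 TPM (112 ± 7.36, SD, n = 2). It ranked 15th of all transcripts by mean CPM and 1392nd by mean TPM, and alone held 5.35% and 5.30% of the reads of the 523. The IDs on either side of it were nearly empty. The preceding one (6847 nt) had 24 and 29 counts, and the following one, itself 37027 nt long, had 6 counts in replicate 1 and 0 in replicate 2 and so fell short of the read minimum.

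The next by reads were uc003xqi.2 (13505 nt) and uc003xqj.2 (13412 nt), with consecutive IDs. The first had 11920 and 7379 counts (86.1 and 94.7 TPM; 90.4 ± 6.12, SD, n = 2), and the second had 11755 and 7276 counts (85.5 and 94.1 TPM; 89.8 ± 6.07, SD, n = 2). Their summed reads stood in a ratio of 1.01, so they are not treated as separate measurements. The following ID, uc003xqk.1 (3417 nt), had 3040 and 1539 counts. It was 25.5% as long as uc003xqj.2 and had 24.1% of its reads, so that its mean TPM of 82.4 was close to the 89.8 of the long entry. These 3 most-read entries over 10000 nt were also the 3 highest by TPM, and together they held 11.3% of the group's reads in each library.

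At the other end of the density scale stood the 3 longest transcripts, which have consecutive IDs. The longest, uc010zfg.1 (101492 nt), had 19 counts in each library, or 0.018 TPM in replicate 1 and 0.032 in replicate 2. The next, uc010zfh.1 (82577 nt) and uc010zfi.1 (82388 nt), had 12 counts in replicate 1 and 17 in replicate 2 each. These were also the lowest by mean TPM of the 523, at 0.0249 ± 0.0152 for uc010zfh.1 and 0.0250 ± 0.0153 for uc010zfi.1 (SD, n = 2). With 38 summed reads for uc010zfg.1 and 29 for each of the other two, all rested on few reads, and uc010zfh.1 and uc010zfi.1 had the same counts. The shorter ID just before the run (2768 nt) had 155 and 99 counts, or 668% of the summed reads of uc010zfg.1.

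Density did not follow length smoothly across the group. In the length groups given above, the median of the mean TPM was 3.89 (at most 11000 nt), 5.12 (to 12000 nt), 3.47 (to 15000 nt) and 4.15 (to 20000 nt). It was 0.535 for the 15 transcripts over 20000 nt, of which 9 had a mean TPM under 1. These 15 formed only 10 runs of consecutive IDs, and this subset was set apart after its values were seen. The highest among them was uc001xgm.2 (21809 nt), with 1164 and 843 counts. The ID before it, uc001xgl.2 (21875 nt), had the same counts. Spearman's rho between length and mean TPM was -0.100 over the 523 and -0.051 over the 508 up to 20000 nt. These correlations describe transcripts of the same libraries, many of which had equal or nearly equal counts.

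**Figure D2:**
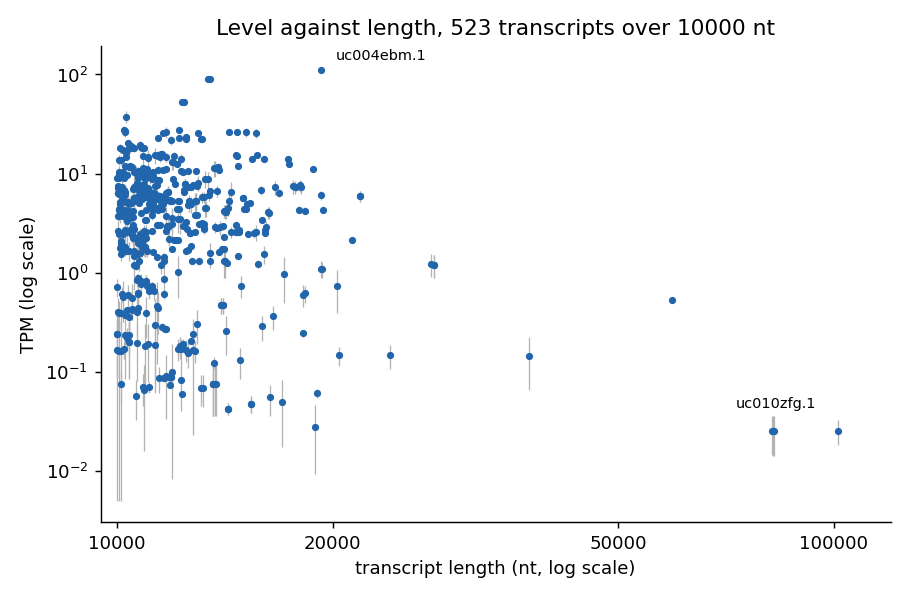
Mean TPM (points) of the 523 transcripts over 10000 nt against length, both on log scales; grey lines join the values of replicates 1 and 2, and 3 lines that reach the lower edge belong to transcripts with 0 counts in replicate 1. The most-read transcript, uc004ebm.1, stands at 112 TPM, and the longest, uc010zfg.1, at 0.025 TPM.

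Many of the 523 entries had the counts of a neighbouring ID, or nearly so, and are not treated as separate measurements. Taking IDs whose numbers differ by 1 as consecutive, the 523 fell into 377 runs: 286 entries stood alone and 237 (45.3%) belonged to 91 runs of more than 1 entry. Of these runs, 55 had 2 entries, 21 had 3, 13 had 4, 1 had 5 and 1 had 7. Counts within a run were close. Among the 146 pairs of neighbouring very long entries, 62 (42.5%) had identical counts in both libraries and 114 (78.1%) had counts within 10% of each other in both. Over all 36296 neighbouring pairs with at least 10 reads each, of any length, these shares were 11.9% and 28.1%. Both entries of the 146 pairs had passed the length bound, so the 2 sets of pairs were not chosen alike. In 530 pairs of a very long entry and a neighbour of at most 10000 nt, 1.13% were identical and 4.53% within 10%. Here the neighbour needed only 1 read, not 10, so these shares are not directly comparable with those above. Of the 62 identical pairs, 61 differed in length.

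The longer entry of a pair usually had as many reads as the shorter or more. Of the 145 pairs of unequal length, the longer had more summed reads in 67, the same number in 62 and fewer in 16. Lengths within a run differed little, with a median ratio of longest to shortest of 1.01. The widest ratio, 2.56, was found in the runs uc003qos.3 to uc003qou.3 and uc010kiv.2 to uc010kiw.2, both with lengths from 10834 to 27744 nt. In the first of these, counts ran from 167 to 254 in replicate 1, and in replicate 2 they lay between 157 and 243, so that reads differed 1.53-fold where length differed 2.56-fold. These runs were chosen after their values were seen.

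The run with most entries, uc003zab.1 to uc003zah.2, held 7 entries between 14646 and 15249 nt. Its first 5 entries had 382 or 383 counts in replicate 1 and 221 in replicate 2, the sixth had 383 and 231, and the last had 452 and 256. The second, uc002exj.1 to uc002exn.1, held 5 entries between 14103 and 14219 nt, all with 691 counts in replicate 1 and with 286 or 288 in replicate 2. The third place was shared by the 13 runs of 4 entries, of which uc001sfh.3 to uc001sfk.3 had most reads, between 1556 and 1686 in replicate 1 and between 1089 and 1129 in replicate 2. In the runs of 5 and 4 entries the libraries differed by more than the entries did: the 5-entry run was higher in replicate 1 in every entry, with 35.8 CPM against 25.6 CPM or less, and the 4-entry run was higher in replicate 2.

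**Figure D3:**
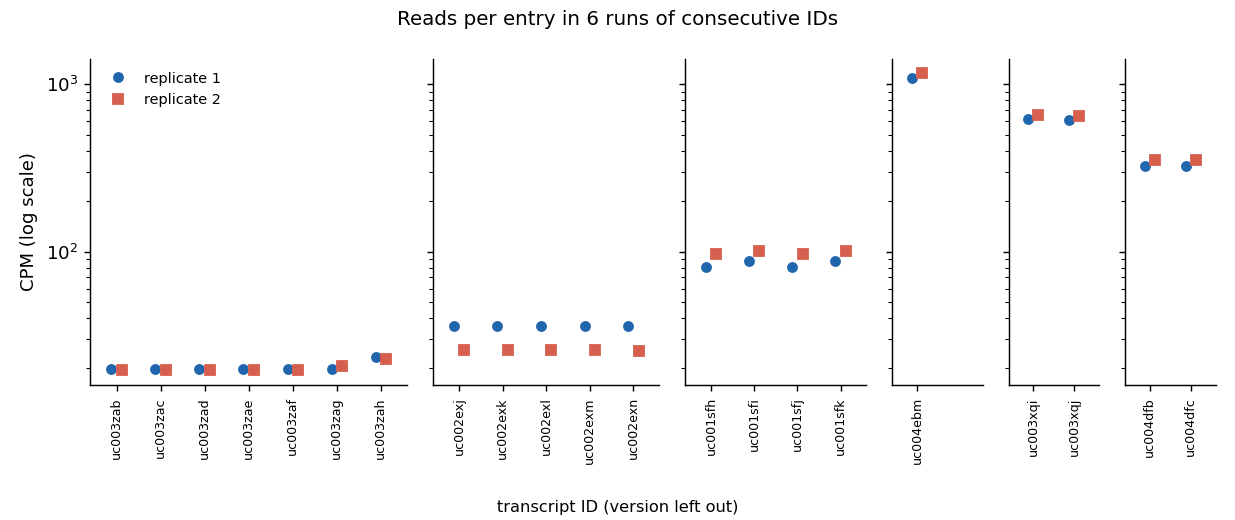
CPM (log scale) of each entry in 6 runs of consecutive IDs over 10000 nt, with replicate 1 as circles and replicate 2 as squares; the first 3 panels are the runs with most entries and the last 3 those with most reads. Entries of 1 run lie almost level, for example at 691 counts in replicate 1 in all 5 entries of uc002exj.1 to uc002exn.1.

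Counting 1 entry per run, the one with most reads, left 289931 counts in replicate 1 and 178993 in replicate 2, which is 73.4% and 72.7% of the group's reads. The 523 entries held 421 distinct pairs of counts, and the 207 with at least 1000 summed reads held 170. Runs join only consecutive IDs, so entries with equal counts and distant IDs were not merged. For example, uc002jfx.3 (13829 nt) had 1531 and 983 counts, as did uc010wqk.1, described below. Taking 1 entry per run thus removes only part of the repeated counts.

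Shorter neighbours of the very long entries rarely had the same counts. There were 530 pairs of a very long entry and an ID next to it of at most 10000 nt with at least 1 read, touching 391 of the 523. In 24 pairs (4.53%) the counts were within 10% in both libraries, and in 6 (1.13%) they were identical. The shorter entry had a median of 23.3% of the length and 29.7% of the reads of the long one. The very long entry had more reads in 440 of the 530 pairs (83.0%) and the lower mean TPM in 259 (48.9%). In 4 pairs with counts within 10%, the neighbour was under 50% of the length. The shortest of these relative to its partner was uc010wql.1 (2396 nt), with 1637 and 908 counts beside 1531 and 983 for uc010wqk.1 (13832 nt). The long entry of this pair thus had a mean TPM of 11.6 where the short one had 66.2. This pair too was chosen after its values were seen, and the tables do not say whether the entries have reads in common.

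The levels of the 523 in the replicates lay close together. Pearson's r of log2(TPM + 1) was 0.982 and Spearman's rho of TPM was 0.976 over the 523, against 0.953 and 0.943 over all 46395 transcripts with at least 10 reads. With 1 entry per run, r was 0.982 and rho 0.978 over 377. These are descriptions across transcripts of the same libraries. Of the 523, 472 (90.2%) differed by less than 2-fold between the libraries after adding 0.5 counts, against 82.0% of all. The read numbers were unlike, with a median of 750 summed reads in the 523 and 274 in all. With at least 1000 summed reads, all 207 very long transcripts and 99.9% of all lay within 2-fold. The spread between libraries beyond counting noise, which edgeR gives as a biological coefficient of variation, was 0.199 for the 523 and 0.318 for all, and 0.253 for transcripts from 5000 to 10000 nt. Part of this gap moved with read number: with at least 1000 summed reads, which 39.6% of the 523 and 16.7% of all reached, it was 0.122 for the very long transcripts, 0.138 for all and 0.142 for those from 5000 to 10000 nt. These differences between classes were not tested.

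**Figure D4:**
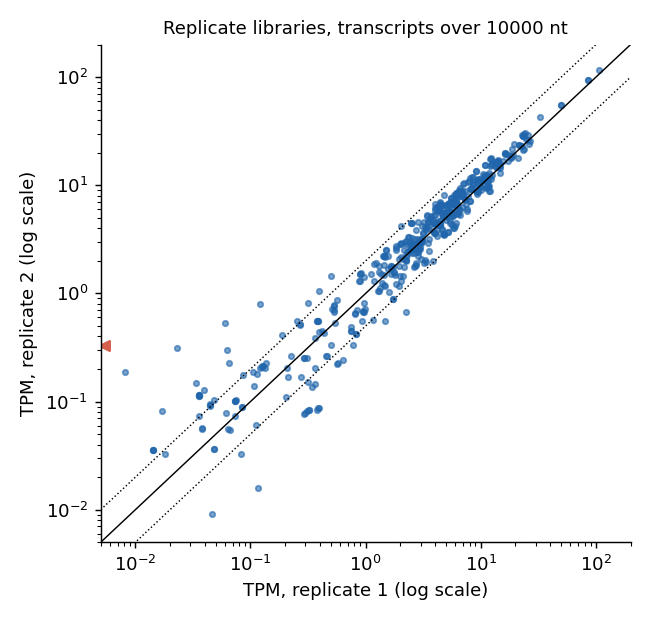
TPM in replicate 2 against TPM in replicate 1 for the 523 transcripts over 10000 nt, on log scales; the solid line marks equality, dotted lines a 2-fold difference, and triangles at the left edge the 3 transcripts with 0 counts in replicate 1. After adding 0.5 counts and scaling to library totals, 472 of the 523 differ by less than 2-fold, and the wide departures lie at low TPM.

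The rule used the sum of the libraries, so the split of reads between them is a separate measure. It was compared with the split of the library totals by a two-sided exact binomial test, adjusted by Benjamini-Hochberg over all 46395 transcripts. This test asks whether the libraries differ beyond sampling noise and says nothing about conditions. It called 48.6% of all transcripts and 274 of the 523 (52.4%), a share near the background. The direction was less even than among all transcripts. A like lean was seen in the median ratio of transcripts from 5000 to 10000 nt, given below. Of the very long transcripts, 183 (35.0%) were called higher in replicate 2 relative to its total, where 25.0% of all transcripts were, and 91 (17.4%) were called higher in replicate 1, against 23.6%. Called differences of at least 2-fold were found for 40 of the 523 (7.65%), 20 in each direction, against 15.7% of all transcripts. With at least 1000 summed reads they were found for 0 of 207, against 0.077% of all at that depth. Among the 207 with at least 1000 summed reads, 131 (63.3%) were called against 59.8% of all at that depth. Of these, 99 (47.8%) were higher in replicate 2 against 30.8%, and 32 (15.5%) higher in replicate 1 against 29.0%. Entries with equal or close counts each enter these numbers. With 1 entry per run 125 of 377 were higher in replicate 2 and 70 in replicate 1, though entries with equal counts in different runs were not merged. With a variance widened by the mean deviation that shorter transcripts of like read number showed between the libraries, a normal test of the split (scipy, Benjamini-Hochberg adjustment) called 0 of the 523 and also 0 of all 46395, so every call of the binomial test was lost under it. An unadjusted p under 0.05 was then found for 15 of the 523 (2.87%), against 4.78% of all. The widening was estimated on transcripts up to 10000 nt, which are most of those tested. The share over all was thus largely set by it, and the loss of calls over all is not a separate result.

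The median log2 ratio of replicate 1 over replicate 2 was -0.10 for the 523, with quartiles of -0.40 and 0.19. It was -0.01 for all transcripts and -0.09 for the 5859 from 5000 to 10000 nt, so the next shorter class shared the lean. Of the 523, 316 (60.4%) lay below 0, against 50.5% of all transcripts. At 500 to 999, 1000 to 1999 and 2000 to 4999 reads, 61.2, 61.8 and 72.2% of the very long transcripts lay below 0. In the next shorter class these shares were 60.2, 62.6 and 68.9%. The median of the very long transcripts varied with read number, with no steady course. The median was -0.54 for the 35 very long transcripts at 10 to 19 summed reads, -0.57 for 29 at 20 to 49 and -0.07 for 25 at 50 to 99. At 100 to 199 summed reads it was 0.41 for 26, of which 9 lay below 0. It was -0.01 for 80 at 200 to 499 reads, -0.08 for 121 at 500 to 999, -0.10 for 123 at 1000 to 1999 and -0.15 for 72 at 2000 to 4999. Transcripts from 5000 to 10000 nt had medians of -0.25, -0.14 and -0.03 in the 3 lowest ranges, -0.05 at 100 to 199 reads and -0.06 at 200 to 499. Theirs were -0.09, -0.09 and -0.13 in the next 3. The classes thus lay further apart at 10 to 19, 20 to 49 and 100 to 199 reads than from 500 to 4999 reads, with opposite signs at 100 to 199. In these 3 low ranges the very long transcripts formed only 24, 17 and 19 runs. These differences were not tested. At 5000 reads or more, 10 of 12 very long transcripts, in 9 runs, lay below 0, with a median of -0.10. In the next shorter class 38 of 75 (50.7%) lay below 0 there, with a median of -0.04, so that class was near even at this depth.

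**Figure D5:**
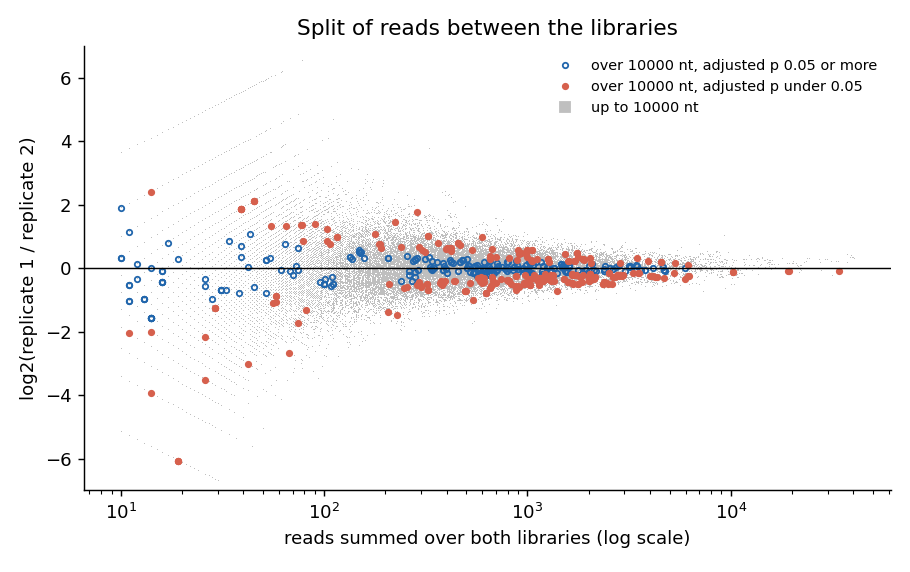
Log2 ratio of replicate 1 over replicate 2, scaled to library totals after adding 0.5 counts, against summed reads (log scale). Filled points are the 274 transcripts over 10000 nt past an adjusted p of 0.05 in the exact binomial test, open points the others over 10000 nt, and grey dots transcripts up to 10000 nt; the spread narrows as reads increase.

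Among the very long transcripts called with at least 1000 summed reads, the largest ratio in favour of replicate 1 was shared by uc003cod.2 (12685 nt) and uc003cog.2 (12601 nt). Each had 753 counts in replicate 1 and 295 in replicate 2, or 39.0 and 26.2 CPM, a log2 ratio of 0.57 (adjusted p = 4.71e-08, exact binomial test). In the other direction the largest ratio was that of uc003xpr.2 (14439 nt), with 714 and 681 counts, or 37.0 and 60.6 CPM, a log2 ratio of -0.71 (adjusted p = 6.12e-18, exact binomial test). The next ratio was shared by uc004euj.2 (12871 nt), uc010nqy.2 (12892 nt) and uc011muj.1 (12889 nt), each with 555 and 469 counts, or 28.7 and 41.7 CPM, a log2 ratio of -0.54 (adjusted p = 5.41e-08, exact binomial test). With the widened variance uc003cod.2, uc003cog.2, uc003xpr.2 and uc004euj.2 each had an adjusted p of 0.969 (normal test, scipy), and their calls were lost. All 207 very long transcripts at this depth lay within 2-fold between the libraries, as did 99.9% of all transcripts at that depth.

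Counts of 0 were seen in replicate 1 alone, in 3 very long transcripts: uc003ada.1 (10068 nt), uc003adb.1 (10142 nt) and uc003add.1 (10016 nt), each with 19 counts in replicate 2. A count of 0 in replicate 1 allows up to 3 counts, or 0.155 CPM. Their equal counts and near IDs are the reason they are treated as 1 observation rather than 3. They were named after their values were seen.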

How the data were processed

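A pair of deposited tables of 1 CLIP-seq group with 2 replicates were used. The authors deposited raw counts per transcript, as whole numbers, and TPM values for the same transcripts, per the file headers. The submitters' processing notes name cutadapt 4.1, STAR 2.7.0d and hg38, with no role or order. The counting program, the annotation, the removal of duplicate reads and the treatment of reads overlapping several transcripts are not given in the sources used here. Per the labels' protocols, libraries were prepared with a stranded mRNA kit, and CLIP is described separately. Columns were matched to samples by the replicate number in the titles alone, since the column names give no treatment.

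Count divided by TPM is proportional to length, and 1 scale per library made all 57721 values whole numbers (largest distance 5.1e-10). These were used as lengths in nt and were not compared with annotated lengths. Reads per kb are counts divided by this length. A run is a set of IDs whose letters and digits, read as 1 number, differ by 1.

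The binomial test used scipy 1.17.1 in Python 3.11.15, with a threshold of 0.05. For log2 ratios, 0.5 was added to each count. The coefficient of variation came from edgeR 4.0.16 (R 4.3.3), with TMM scaling from the whole table and an intercept alone. DESeq2 1.42.0 gave alternative size factors. With 1 group edgeR has no contrast to test. The multiplied variance was estimated on transcripts up to 10000 nt. The computations were tested on simulated data.

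The members, lists and tests were chosen with earlier results of these data known. Named IDs are the 3 longest, the 3 with most reads, the 3 highest and 2 lowest by TPM, the 2 largest ratios in each direction with at least 1000 reads (and entries tied with them), the 3 runs with most entries and with most reads, and those at the bounds; others are said to be chosen after their values were seen. Reads copied in amplification are not independent molecules. Lists of genes with long messenger RNAs were not evaluated, because no ID was paired with a symbol.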

Additional observations from a re-analysis of the deposited data

How the results depend on the processing

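The number of very long transcripts was 1371 with a length bound of 8000 nt and 210 with 12000 nt, as the bound itself sets it; it was between 459 and 618 under other read minimums and between 483 and 490 when 1 replicate was left out. Their share of counts, 2.12%, was 0.327% of TPM, 1.55% with 1 transcript per run and 1.88% without the 3 most-read transcripts, a setting chosen after seeing the data; with 1 replicate left out it lay between 2.05 and 2.19%. The median density, 2.13 reads per kb per 1000000 counts, was 1.47 with at least 1 read, 2.51 with at least 50, 2.02 with 1 transcript per run, 1.79 over 8000 nt and 1.63 over 12000 nt; with 1 replicate left out, and the minimum of 10 reads applied to the other alone, it lay between 2.23 and 2.35. The number split unevenly was 274 of 523 (52.4%), against 48.6% of all transcripts, and between 272 and 274 of 523 under other scalings. It was 267 of 618 (43.2%) with at least 1 read, 254 of 459 (55.3%) with at least 50 and 195 of 377 (51.7%) with 1 transcript per run. The shares over all at these settings are not given here. With at least 1000 reads, a setting chosen after seeing the data, it was 131 of 207 (63.3%), against 59.8% of all at that depth. With the multiplied variance it was 0, and 0 among all transcripts as well. The 4 transcripts tested singly for their ratio lost their calls there (adjusted p = 0.969, normal test). These 4 calls held under the other scalings. The median log2 ratio lay between -0.12 and -0.07 under all 9 alternatives. The coefficient of variation was 0.178 with at least 50 reads. The number of runs lay between 338 and 409. No paired analysis was possible because there is only 1 group of libraries.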
